A study of Mus musculus with 13 samples.

Results

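The genes of cholesterol and fatty acid synthesis were examined in T cells sorted from B16-F10 melanoma tumors, a transplantable mouse skin cancer line grown under the skin. The set was a list of 39 gene symbols, grouped by what the proteins do and chosen with earlier results of these data known. Of the 39, 37 were among the 12963 genes of the deposited table. Hmgcs1 and Me1 were not analysed here. All tumors grew in adult Foxp3-EGFP-DTR mice, in which the endogenous Foxp3 gene drives the diphtheria toxin receptor and a green fluorescent protein, so that Treg cells can be sorted by fluorescence and ablated throughout the body with diphtheria toxin (DTx). Mice received PBS or DTx, and every group carried the same allele. The groups were Treg cells from PBS mice (Treg PBS, 3 libraries), CD4+ Tconv cells from PBS mice (CD4 PBS, 2 libraries, replicates 2 and 3), CD4+ Tconv cells from DTx mice (CD4 DTx, 3 libraries), CD8+ Tconv cells from PBS mice (CD8 PBS, 2 libraries, replicates 2 and 3) and CD8+ Tconv cells from DTx mice (CD8 DTx, 3 libraries). No group of these 13 libraries received DTx without the receptor, so effects of the toxin and of Treg cell loss cannot be told apart.

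Cells make cholesterol from acetyl-CoA through mevalonate, isoprenoid units and squalene, and most genes of that route are switched on together by the transcription factor SREBP2. SREBPs are held in the endoplasmic reticulum by INSIG proteins when sterols are plentiful, and are carried to the Golgi by SCAP and activated when sterols run low. Excess sterol instead activates the LXR receptors, which induce the exporters ABCA1 and ABCG1, while SREBP1 is best known for the genes that make and desaturate fatty acids. T cells that start to divide are known to raise both routes to build membrane.

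Promoter sequence is shown for 5 members with different patterns across the groups: Idi1 and Cyp51, highest in Treg cells, Lss, higher after DTx in both Tconv subsets, Ebp, which was above every PBS Tconv library in Treg cells and in both subsets after DTx, and Insig1, lower after DTx than in Treg cells. Each run is the 250 bases before the annotated transcript start in RefSeq (GRCm38.p6), written 5′ to 3′ along the gene's strand, with CCAAT boxes, or their reverse complement ATTGG, in capitals. The Idi1 window lies at chr13:8885356-8885605 on the plus strand, Cyp51 at chr5:4104698-4104947 on the minus strand, Lss at chr10:76531355-76531604 on the plus strand, Ebp at chrX:8193513-8193762 on the minus strand and Insig1 at chr5:28071162-28071411 on the plus strand.
Idi1: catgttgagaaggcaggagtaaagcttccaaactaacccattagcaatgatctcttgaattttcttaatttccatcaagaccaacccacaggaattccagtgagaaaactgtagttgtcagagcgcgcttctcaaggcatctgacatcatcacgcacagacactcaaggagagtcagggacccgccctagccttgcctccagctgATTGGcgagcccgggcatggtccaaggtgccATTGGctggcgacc
Cyp51: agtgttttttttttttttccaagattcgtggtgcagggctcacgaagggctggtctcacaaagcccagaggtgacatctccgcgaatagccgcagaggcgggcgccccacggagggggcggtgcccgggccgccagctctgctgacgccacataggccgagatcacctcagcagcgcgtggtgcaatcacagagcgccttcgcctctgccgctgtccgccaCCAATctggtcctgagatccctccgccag
Lss: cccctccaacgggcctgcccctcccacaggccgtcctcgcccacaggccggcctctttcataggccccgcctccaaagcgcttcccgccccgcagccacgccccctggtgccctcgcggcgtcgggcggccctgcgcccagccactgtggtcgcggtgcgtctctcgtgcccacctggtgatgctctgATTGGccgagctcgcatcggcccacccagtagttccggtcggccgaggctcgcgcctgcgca
Ebp: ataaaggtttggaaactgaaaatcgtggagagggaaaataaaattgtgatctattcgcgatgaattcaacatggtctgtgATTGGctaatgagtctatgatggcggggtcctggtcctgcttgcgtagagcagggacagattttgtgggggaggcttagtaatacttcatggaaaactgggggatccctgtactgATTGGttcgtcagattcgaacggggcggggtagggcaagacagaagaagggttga
Insig1: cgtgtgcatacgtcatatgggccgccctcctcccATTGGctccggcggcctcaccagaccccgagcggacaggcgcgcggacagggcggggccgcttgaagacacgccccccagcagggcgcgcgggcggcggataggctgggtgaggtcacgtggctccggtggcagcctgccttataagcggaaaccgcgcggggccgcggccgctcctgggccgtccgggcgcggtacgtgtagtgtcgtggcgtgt
The CCAAT box is bound by NF-Y, a factor that works beside SREBPs at many sterol genes. Windows were given for 29 of the 37 members, 38 windows in all, and CCAAT on either strand was in 57.9% of them, against 33.8% of the 32851 windows of all genes. The GC box GGGCGG, bound by SP1, was in 71.1% of the members' windows and 32.7% of all windows. The members' windows belonged to genes measured here, whereas the windows of all genes were not limited to measured ones. The sterol response element searched as TCACNCCAC was in 0 of the 38 windows and in 1.05% of all, which says only that these letters were not in these windows. No motif searched contains another, although neighbouring matches can share bases. Both strands were searched, and a match is a description of the sequence, not evidence that a factor binds there.

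Levels are given in normalized reads, the deposited library-scaled counts per gene. The libraries held between 15947556 and 34140486 reads assigned to genes, and 3 reads in a library, taken as the lowest level told from 0, corresponded to 1.98 to 4.10 normalized reads. Sorting was checked with marker genes. The summed level of Foxp3, Lrrc32, Ikzf2 and Itgb8 was 11771 to 17125 in Treg PBS and 221 to 1337 in the other libraries, Cd4 was 10595 to 32504 in the 3 CD4+ groups and 0 to 413 in the CD8+ groups, and Cd8a with Cd8b1 was 63851 to 125989 in the CD8+ groups against 370 to 3662 elsewhere. Melanoma cell genes (Tyrp1, Dct, Pmel, Tyr) summed to 727 to 1197 in Treg PBS, 435 to 448 in CD4 PBS, 89.0 to 170.2 in CD4 DTx, 171 to 629 in CD8 PBS and 60.7 to 124.7 in CD8 DTx. Markers of macrophages (8 genes) summed to 1158 to 3943 in Treg PBS, 1286 to 1502 in CD4 PBS, 90.7 to 2192 in CD4 DTx, 685 to 2147 in CD8 PBS and 1842 to 2762 in CD8 DTx. The erythroid genes Hba-a1 and Alas2 summed to 897 to 1707 in Treg PBS, 398 to 3486 in CD4 PBS, 0 to 627 in CD4 DTx, 799 to 3287 in CD8 PBS and 6.47 to 424 in CD8 DTx. Erythroid sums were thus lower in CD8 DTx than in CD8 PBS without overlap, and melanoma sums were lower after DTx in both subsets without overlap. The part of these cell types in the results was not tested. The adipocyte marker in the table was at 0 to 1.21 in every library. In bulk libraries, fewer cells that express a gene and less RNA of that gene per cell cannot be told apart.

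Intratumoral Treg cells held more transcript of much of the cholesterol route than CD4+ Tconv cells of PBS mice. Of the 37 members, 13 were higher and 1 was lower in Treg PBS (limma, adjusted p under 0.05), or 14 of 37 (37.8%) against a background of 20.4% of all 12667 genes tested. The background was 13.5% in the higher direction and 6.91% in the lower. The 13 higher genes were Pmvk, Idi1, Fdps, Fdft1, Sqle, Cyp51, Nsdhl, Ebp, Sc5d, Insig2, Stard4, Elovl1 and Acsl4, and the lower gene was Abcg1. The members' median log2 difference was 0.61, and that of all genes tested was 0.01. At the study's second threshold of a 4-fold difference, Idi1 and Cyp51 were called, against a background of 10.2%. Without CD4 PBS replicate 3, which left 1 library in that group, the calls of Insig2, Ebp, Acsl4, Nsdhl, Sc5d and Fdps were lost. Cyp51, Elovl1, Fdft1, Sqle, Stard4, Pmvk and Idi1 kept their call when any library of either group was left out.

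CD4+ Tconv cells from DTx mice differed from CD4 PBS in 6 of the 37 members (16.2%), all higher, beside a background of 12.7% of genes in either direction and 8.64% in the higher direction. The background in the lower direction was 4.08%, with no member called. The 6 genes were the sterol enzymes Lss, Ebp and Sc5d, the sterol carrier Stard4, the elongase Elovl1 and the acyl-CoA synthetase Acsl4. None of the 37 passed the 4-fold threshold, which 6.85% of genes passed. The members' median was 0.26 on the log2 scale, beside -0.04 for all genes. Only Stard4 was still called when CD4 PBS replicate 2 or CD4 PBS replicate 3 was left out. A fit on the CD4 DTx and CD4 PBS libraries alone kept the calls of Stard4, Sc5d and Lss and ended the other 3.

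In CD8+ Tconv cells from DTx mice, 9 of the 37 members were higher and 2 were lower than in CD8 PBS (29.7% in all), against a background of 10.9% of genes in either direction, 7.40% higher and 3.47% lower. The higher genes were Idi1, Fdft1, Sqle, Lss, Sc5d, Stard4, Scd1, Elovl1 and Acsl4, and the lower genes were the exporters Abca1 and Abcg1. Of these, Scd1 and Abca1 also passed the 4-fold threshold, with a background of 5.46%. The median over the members was 0.35, against -0.03 for all genes. These calls leaned on few libraries, and a fit on the CD8 DTx and CD8 PBS libraries alone kept those of Sqle and Scd1 and ended the other 9. Leaving out either CD8 PBS library left 1 in that group. All of the calls were lost without CD8 PBS replicate 3, and most of them without CD8 PBS replicate 2. Without CD8 DTx replicate 1 the count was 5, against a background of 6.81%, and without CD8 DTx replicate 2 it was 6, against 6.19%.

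Groups of 2 and 3 libraries often do not overlap, so a lack of overlap says little alone. The libraries of Treg PBS and CD4 PBS did not overlap for 26 of the 37 members, against 56.7% of all genes. This held for 21 members for CD4 DTx and CD4 PBS, against 46.3%, and for 24 members for CD8 DTx and CD8 PBS, against 43.6%.

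**Figure D1:**
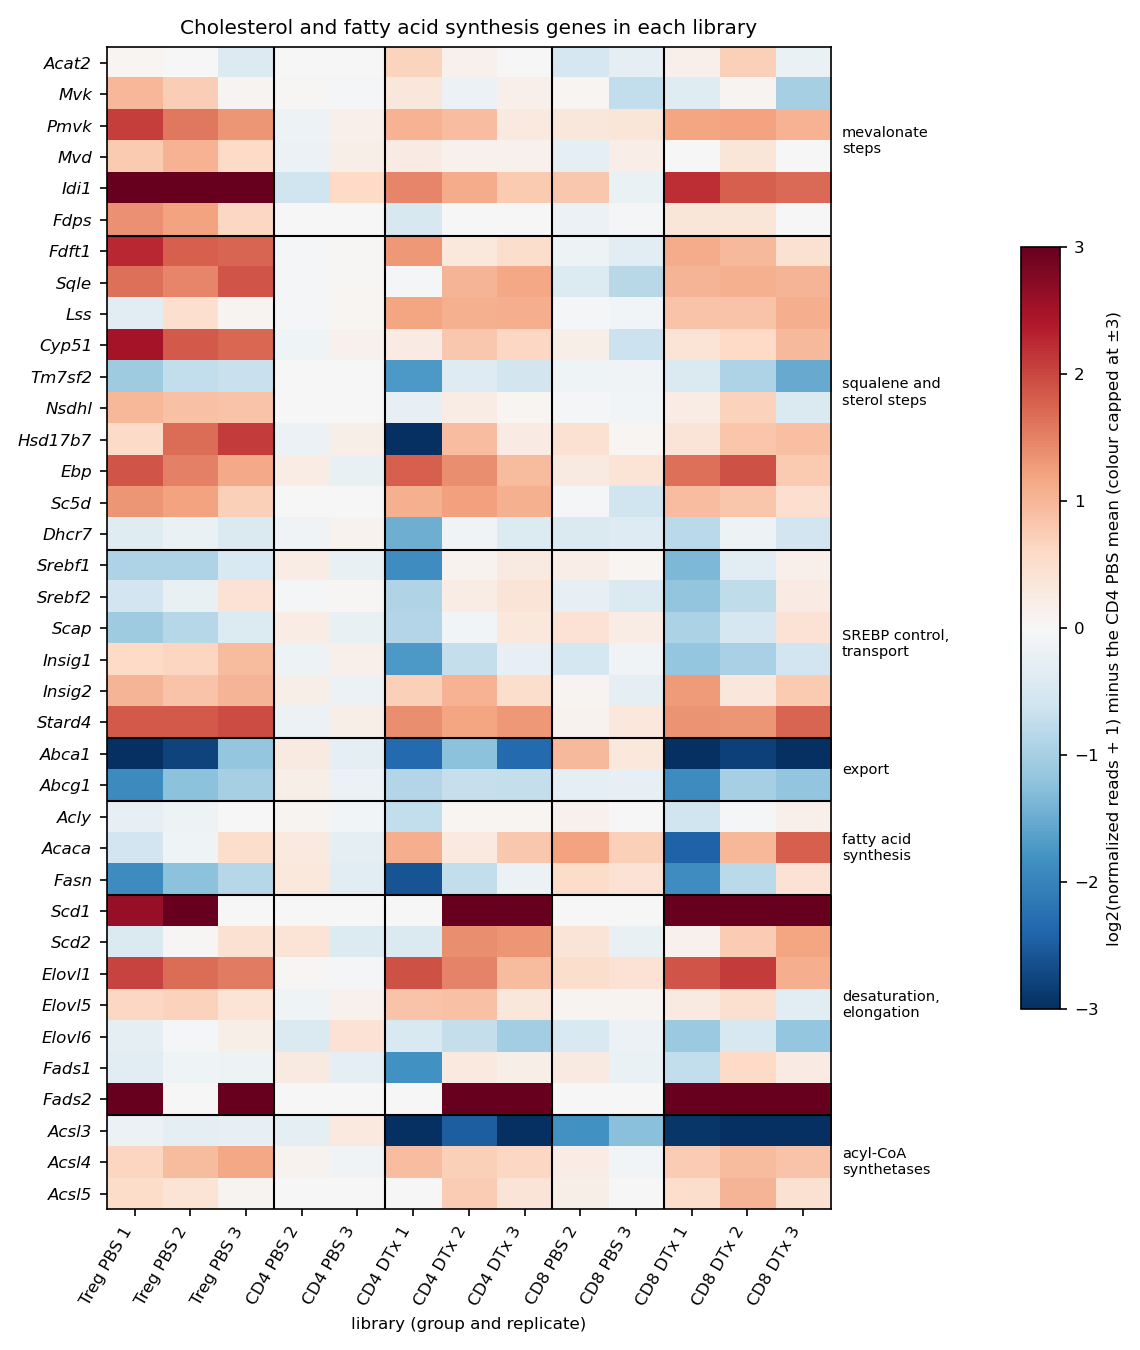
Level of each of the 37 genes in each of the 13 libraries, as log2(normalized reads + 1) minus the mean of the 2 CD4 PBS libraries, with red for higher and blue for lower and the colour capped at 3 in either direction. Rows are ordered by role, the rows of Pmvk, Idi1, Fdft1 and Cyp51 are reddest in the 3 Treg PBS libraries, with Idi1 beyond the cap in all 3, and Scd1 and Fads2 were at 0 in both CD4 PBS libraries, so that their colours rest on low levels.

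**Figure D2:**
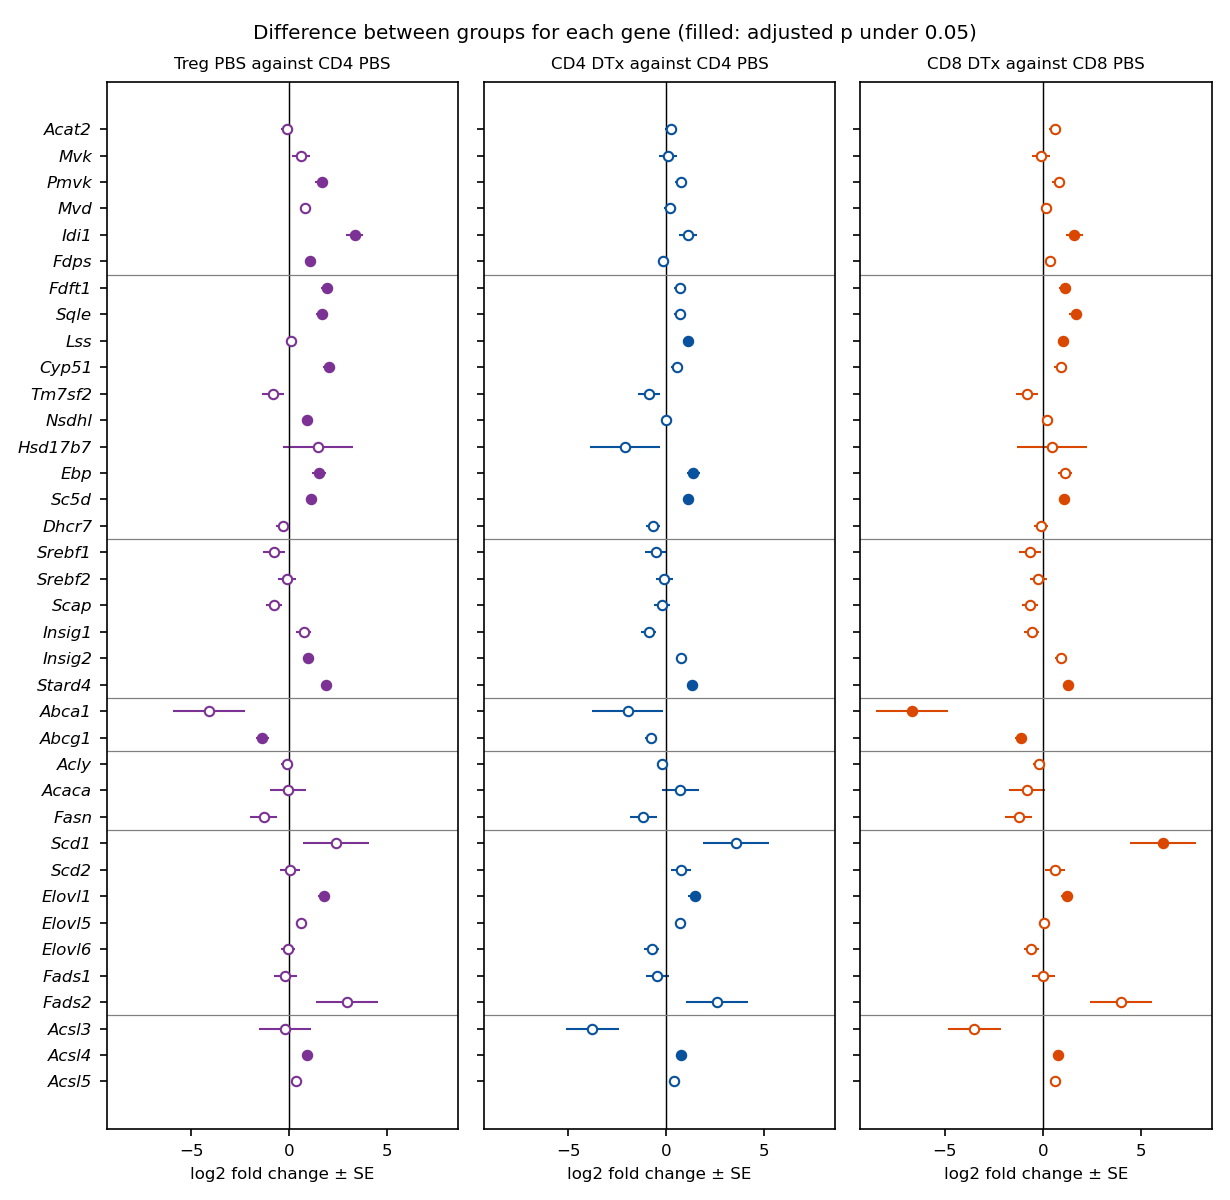
Log2 difference of each gene with its standard error in the 3 comparisons with PBS Tconv cells, on 1 shared x axis, with filled points where the adjusted p was under 0.05. Filled points number 14 for Treg PBS against CD4 PBS, 6 for CD4 DTx against CD4 PBS and 11 for CD8 DTx against CD8 PBS.

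The mevalonate steps turn acetyl-CoA into the isoprenoid units from which sterols are built. Of the 6 measured genes, 3 were higher in Treg PBS, none was called in CD4 DTx and 1 was called in CD8 DTx, where 20.4%, 12.7% and 10.9% of all genes were called. Idi1, the isomerase that makes dimethylallyl diphosphate, stood furthest apart. Its levels were 1251, 851 and 955 in the Treg PBS libraries, 65.6 and 149 in CD4 PBS, 275, 214 and 173 in CD4 DTx, 174 and 86.6 in CD8 PBS and 466, 344 and 324 in CD8 DTx. The Treg libraries were above every other library, and each DTx group lay above its PBS group without overlap. Idi1 was 9.48-fold higher in Treg PBS than in CD4 PBS by the means (log2 3.33 ± 0.44 SE, adjusted p = 0.000308) and 2.9-fold higher in CD8 DTx than in CD8 PBS (log2 1.60 ± 0.44 SE, adjusted p = 0.038). In CD4 DTx the log2 difference was 1.12 ± 0.44 SE, with an adjusted p of 0.126. The CD8 call for Idi1 was lost without CD8 PBS replicate 3, without CD8 DTx replicate 1 or 2, without the replicate 1 libraries of all groups and with the balance of long and short transcripts (given with Fasn) as a covariate, while its log2 difference stayed between 1.10 and 2.09 in all 17 alternatives.

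Pmvk, which adds the second phosphate to mevalonate, read 909, 648 and 539 in Treg cells, 194 and 241 in CD4 PBS, 443, 411 and 267 in CD4 DTx, 273 and 277 in CD8 PBS and 493, 504 and 444 in CD8 DTx. Treg PBS exceeded CD4 PBS 3.21-fold (log2 1.65 ± 0.32 SE, adjusted p = 0.00369), and neither DTx comparison passed the test (adjusted p = 0.161 in CD4+ and 0.14 in CD8+ cells). Fdps, which joins the units into farnesyl diphosphate, had levels of 2760.4, 2448 and 1646 in Treg cells and of 1066 and 1064 in CD4 PBS. After DTx its levels were 766, 1048 and 1064 in CD4+ cells and 1368, 1365 and 1062 in CD8+ cells, beside 943 and 1030.4 in CD8 PBS. All 3 Treg libraries were above all others for Fdps, with a difference from CD4 PBS of 1.07 ± 0.25 SE on the log2 scale (adjusted p = 0.0111), a call lost without either CD4 PBS library. The other measured genes of this step were not called against PBS Tconv cells. Acat2, which condenses acetyl-CoA, ranged from 649 to 1530.3 over the 13 libraries, the kinase Mvk from 98.3 to 396 and the decarboxylase Mvd from 322 to 823.

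Squalene synthesis and the sterol steps gave the most calls, with 6 of 10 genes higher in Treg PBS, 3 of 10 in CD4 DTx and 4 of 10 in CD8 DTx, and none lower, beside backgrounds of 13.5%, 8.64% and 7.40% in the higher direction. Sqle, squalene epoxidase and a rate-limiting enzyme of the route, was at 2045, 1789 and 2404 in Treg cells, 635 and 666 in CD4 PBS, 639.6, 1314 and 1446 in CD4 DTx, 488 and 364 in CD8 PBS and 1310.0, 1362 and 1327 in CD8 DTx. The CD8 DTx libraries lay close together and well above both CD8 PBS libraries, whereas CD4 DTx replicate 1 was as low as CD4 PBS. The difference was 3.2-fold for Treg PBS (log2 1.66 ± 0.31 SE, adjusted p = 0.0029) and 3.13-fold for CD8 DTx (log2 1.66 ± 0.31 SE, adjusted p = 0.00607), and was not called in CD4 DTx (log2 0.71 ± 0.31 SE, adjusted p = 0.172). The CD8 call for Sqle was lost in 1 of 17 alternatives, without CD8 PBS replicate 3.

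Cyp51, the lanosterol demethylase, was at 4814, 3065 and 2835 in Treg cells, 779 and 947 in CD4 PBS, 1020.2, 1512 and 1322 in CD4 DTx, 976 and 551 in CD8 PBS and 1148, 1301 and 1699 in CD8 DTx. Every Treg library was above every other library. Treg PBS exceeded CD4 PBS 4.14-fold (log2 2.01 ± 0.31 SE, adjusted p = 0.000814), a call kept in all 17 alternatives. Neither DTx difference was called (log2 0.56 ± 0.31 SE, adjusted p = 0.279 in CD4+ cells, and log2 0.90 ± 0.31 SE, adjusted p = 0.0883 in CD8+ cells), although the DTx libraries lay above the PBS libraries in both.

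Lss, the cyclase that folds squalene epoxide into lanosterol, had another pattern. Its levels were 472, 833 and 626 in Treg cells, 568 and 609.6 in CD4 PBS, 1329, 1235 and 1262 in CD4 DTx, 569.8 and 557 in CD8 PBS and 1072, 1063 and 1259.9 in CD8 DTx. Treg PBS and CD4 PBS overlapped, while all 6 DTx libraries were above all 7 PBS libraries. Lss rose 2.16-fold in CD4 DTx (log2 1.11 ± 0.25 SE, adjusted p = 0.0108) and 2.01-fold in CD8 DTx (SE 0.25 on the log2 scale, adjusted p = 0.0233), against a log2 difference of 0.09 ± 0.25 SE between Treg PBS and CD4 PBS (adjusted p = 0.829). Both DTx calls were lost when either PBS library of that subset was left out, and the CD8 call also without CD8 DTx replicate 2, with log2 differences of 0.92 to 1.20 over all alternatives. An antisense transcript, 4930483K19Rik, overlaps Lss exons by 150 nt in GENCODE vM21, and the strand setting of the counting is not given in the sources used here. Other called members share exon sequence with neighbours too. Cyp51 shares up to 166 nt with Akap9 and Idi1 323 nt with Gm48574, both on the opposite strand. Fdps shares 197 nt with Gm43738 and Acsl3 140 nt with Utp14b, on the same strand. The part of these neighbours in the levels was not tested.

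Ebp and Sc5d act later, as the sterol isomerase and the desaturase that precede the final reductions. Ebp was at 4397, 3394 and 2603 in Treg cells, 1379 and 1021 in CD4 PBS, 4097, 3144 and 2306 in CD4 DTx, 1425 and 1581 in CD8 PBS and 3748, 4468 and 2041 in CD8 DTx. Sc5d was at 3488, 3223 and 2280.3 in Treg cells, 1386 and 1390.4 in CD4 PBS, 2894, 3254 and 2892 in CD4 DTx, 1329 and 922 in CD8 PBS and 2654, 2479.9 and 1984 in CD8 DTx. For both genes the Treg PBS range overlapped that of each DTx group, and all 9 of these libraries lay above all 4 PBS Tconv libraries. Sc5d was called in all 3 comparisons, with log2 differences of 1.09 ± 0.23 (adjusted p = 0.00623), 1.12 ± 0.23 (adjusted p = 0.00743) and 1.09 ± 0.23 SE (adjusted p = 0.0113) for Treg PBS, CD4 DTx and CD8 DTx. Ebp was called in Treg PBS (1.51 ± 0.35 SE, adjusted p = 0.00917) and CD4 DTx (1.38 ± 0.35 SE, adjusted p = 0.0203), and missed the threshold in CD8 DTx (1.11 ± 0.35 SE, adjusted p = 0.0598). Without CD4 PBS replicate 3, neither gene was called in Treg PBS or CD4 DTx. The CD4 DTx call of Sc5d was also lost without CD4 PBS replicate 2, that of Ebp also without CD4 PBS replicate 2, CD4 DTx replicate 1 or 2 or the replicate 1 libraries of all groups, and the CD8 DTx call of Sc5d was lost without CD8 PBS replicate 3.

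**Figure D3:**
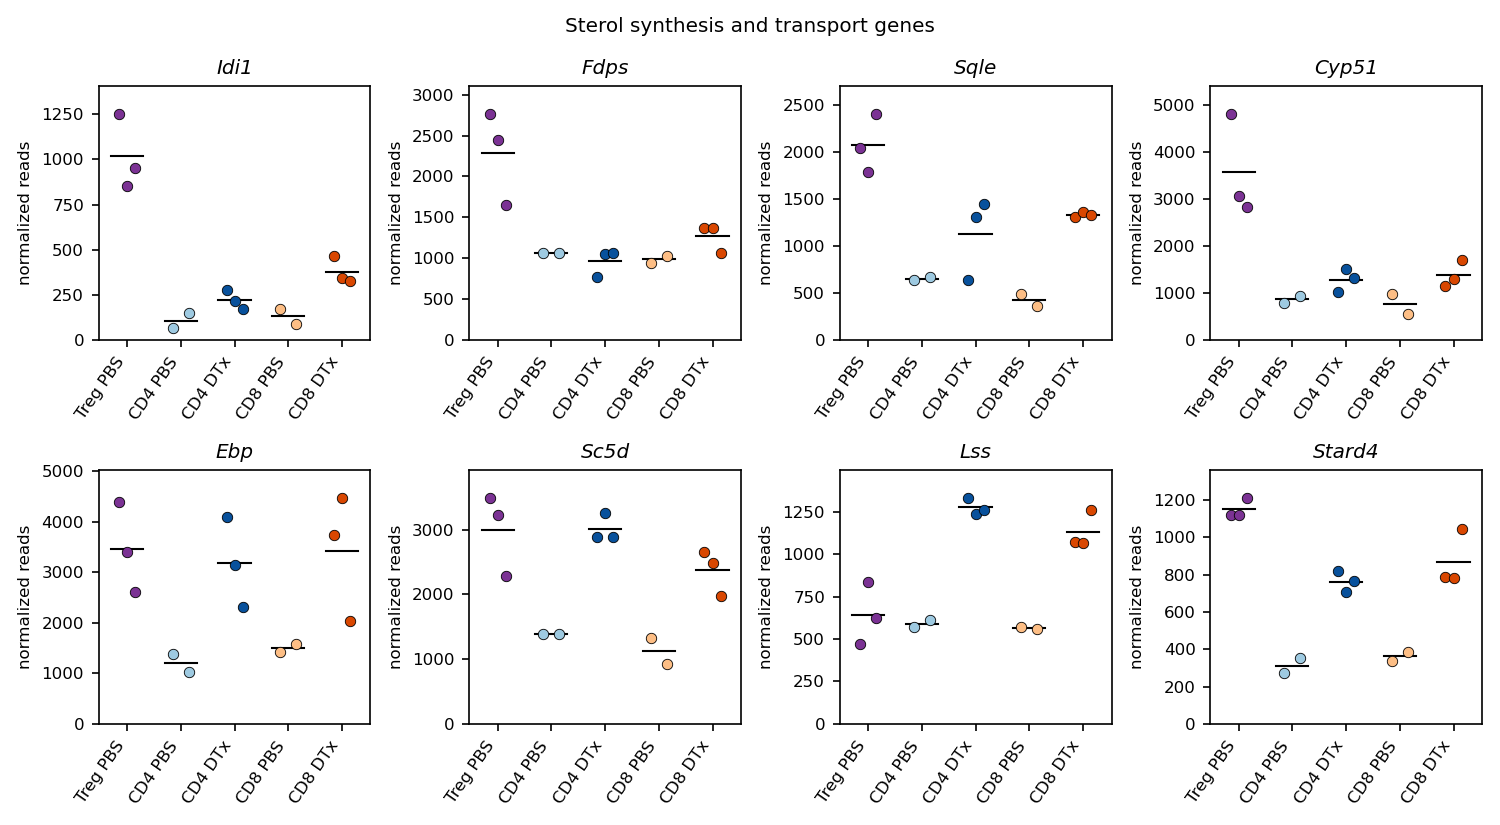
Normalized reads of 8 sterol genes in each library (points, 1 colour per group) with the group mean (line), each panel on its own linear axis from 0. Idi1, Fdps and Cyp51 have their 3 highest points in Treg PBS, Lss has its 6 highest points in the DTx groups, and the 4 PBS Tconv points are the lowest for Ebp, Sc5d and Stard4.

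Fdft1, squalene synthase, shares exon sequence with a neighbour. It was at 3233, 2351 and 2244 in Treg cells, 655 and 691 in CD4 PBS, 1649.5, 834 and 974 in CD4 DTx, 603 and 533 in CD8 PBS and 1466, 1315 and 929 in CD8 DTx. It was called higher in Treg PBS (log2 1.93 ± 0.31 SE, adjusted p = 0.000909) and in CD8 DTx (log2 1.10 ± 0.31 SE, adjusted p = 0.0389). The CD8 call was lost without either CD8 PBS library and without CD8 DTx replicate 1 or 2. Its exons overlap those of Ctsb, the abundant lysosomal protease cathepsin B on the opposite strand, by 774 nt in GENCODE vM21 (GRCm38). The Fdft1 value was between 3.93% and 7.81% of the Ctsb value in all 13 libraries, with a median of 6.92%. How many Fdft1 reads came from Ctsb was not tested, and its calls are uncertain.

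Nsdhl, a sterol dehydrogenase, was at 1504, 1384 and 1368 in Treg cells, 752 and 755 in CD4 PBS, 637, 875 and 784 in CD4 DTx, 741 and 712 in CD8 PBS and 879, 1214 and 559.9 in CD8 DTx. It was called in Treg PBS just under the threshold (log2 0.91 ± 0.29 SE, adjusted p = 0.0436) and lost that call when any library of the 2 groups was left out, without the replicate 1 libraries of all groups, with the length covariate and in edgeR, a count test run on whole reads recovered from the values. The remaining sterol genes were called in none of the comparisons. Dhcr7, which carries out the last reduction to cholesterol, ranged from 454 to 1347 over the 13 libraries and Tm7sf2, a sterol reductase, from 40.2 to 137.4. The sterol ketoreductase Hsd17b7 was at 0 in CD4 DTx replicate 1 and at 258, 555 and 745 in Treg cells, and its difference in CD4 DTx had a large error (log2 -2.09 ± 1.78 SE).

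Among the genes that control SREBP, neither transcription factor nor their escort was called in any comparison. Srebf1, which encodes SREBP1, was at 1462, 1469 and 2019 in Treg cells, 3232 and 2388 in CD4 PBS, 758, 2972 and 3375 in CD4 DTx, 3204 and 2906 in CD8 PBS and 1085, 2179 and 3086 in CD8 DTx. Srebf2, which encodes SREBP2, was at 2919.6, 3699 and 5857 in Treg cells, 4266 and 4438 in CD4 PBS, 2333, 5112 and 5731 in CD4 DTx, 3668 and 3235 in CD8 PBS and 1901, 2552 and 5135 in CD8 DTx. Scap was at 765, 887 and 1208 in Treg cells, 1850.3 and 1375 in CD4 PBS, 864, 1506 and 1996 in CD4 DTx, 2146 and 1861 in CD8 PBS and 821, 1128 and 2160.3 in CD8 DTx. In each of the 3 groups with 3 libraries, the replicate 1 library held the lowest value of each of these genes. Srebf2 overlapped between Treg PBS and CD4 PBS, with a log2 difference of -0.13 ± 0.45 SE (adjusted p = 0.868).

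The 2 retention proteins had different patterns. Insig1, itself an SREBP target that closes the feedback loop, was at 1141, 1162 and 1453 in Treg cells, 672 and 832 in CD4 PBS, 226, 453 and 629 in CD4 DTx, 521 and 694 in CD8 PBS and 334, 382 and 503 in CD8 DTx. All Treg libraries were above all others, and each DTx group lay below its PBS group without overlap, but none of the 3 differences from PBS Tconv cells was called (adjusted p = 0.194, 0.158 and 0.348). Insig2 was at 1525, 1355 and 1534 in Treg cells, 845 and 670.4 in CD4 PBS, 1240.0, 1548 and 1089 in CD4 DTx, 796 and 616 in CD8 PBS and 1838, 958 and 1302 in CD8 DTx. It was higher in Treg PBS (log2 0.96 ± 0.28 SE, adjusted p = 0.0289), a call lost when any library of the 2 groups was left out and with the length covariate, and missed the threshold after DTx (adjusted p = 0.0986 in CD4+ and 0.0565 in CD8+ cells).

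Stard4, a soluble carrier that moves cholesterol between membranes and is itself induced by SREBP2, was among the steadiest results. It was at 1121, 1119 and 1210.2 in Treg cells, 275 and 351 in CD4 PBS, 817, 709.6 and 764 in CD4 DTx, 337 and 388 in CD8 PBS and 786, 781 and 1044 in CD8 DTx. The PBS Tconv libraries were lowest, the DTx libraries intermediate and the Treg libraries highest, with no overlap between these 3 sets. The differences were 3.67-fold for Treg PBS (log2 1.88 ± 0.24 SE, adjusted p = 0.0002), 2.44-fold for CD4 DTx (log2 1.29 ± 0.24 SE, adjusted p = 0.00334) and 2.4-fold for CD8 DTx (log2 1.25 ± 0.24 SE, adjusted p = 0.00578). The Treg PBS and CD4 DTx calls were kept in all 17 alternatives, and the CD8 DTx call in 14 of 17, being lost without either CD8 PBS library.

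The exporters were highest in the PBS Tconv libraries, where the sterol enzymes were mostly low. Abcg1, which moves cholesterol onto lipoproteins, was at 422, 678 and 806 in Treg cells, 1799.8 and 1419 in CD4 PBS, 869, 992 and 971 in CD4 DTx, 1328 and 1349 in CD8 PBS and 429.6, 795 and 699 in CD8 DTx. The 4 PBS Tconv libraries were above all 9 others. Abcg1 was 2.53-fold lower in Treg cells than in CD4 PBS (log2 -1.38 ± 0.32 SE, adjusted p = 0.00936) and 2.09-fold lower in CD8 DTx than in CD8 PBS (log2 -1.11 ± 0.32 SE, adjusted p = 0.0436), and the CD4 DTx difference was not called (log2 -0.76 ± 0.32 SE, adjusted p = 0.147). The Treg call was lost without CD4 PBS replicate 2, and the CD8 call without either CD8 PBS library or CD8 DTx replicate 1. The CD8 call was also lost in edgeR on the recovered reads and with the length covariate, and the longest Abcg1 transcript, at 5832 nt, is among the long ones.

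Abca1, which loads cholesterol and phospholipid onto apolipoproteins, was at 0.847, 86.7 and 266 in Treg cells, 720.2 and 497 in CD4 PBS, 119, 255 and 119 in CD4 DTx, 1171 and 742 in CD8 PBS and 2.77, 84.7 and 1.35 in CD8 DTx. Here too the 4 PBS Tconv libraries were above all others, but the low values were few reads, and in Treg PBS replicate 1 and in CD8 DTx replicates 1 and 3 the gene was at or under the level of 3 reads. By the means it was 32.3-fold lower in CD8 DTx than in CD8 PBS (log2 -6.68 ± 1.81 SE, adjusted p = 0.0351). That call was lost in 8 of 17 alternatives, among them without either CD8 PBS library, without CD8 DTx replicate 1 or 3, with a pseudocount of 0.1, in edgeR on the recovered reads and with the length covariate, and its log2 difference ranged from -8.29 to -4.96. The differences of Treg PBS (log2 -4.09 ± 1.81 SE) and CD4 DTx (log2 -1.96 ± 1.81 SE) from CD4 PBS were not called, with adjusted p = 0.132 and 0.523. Macrophages express both exporters too, and their marker sums, given above, overlapped between CD4 PBS and each of Treg PBS and CD4 DTx, and between CD8 PBS and CD8 DTx. Their part was not tested.

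The core enzymes of fatty acid synthesis gave no call in any of the comparisons. Acly, which supplies cytosolic acetyl-CoA, ranged from 5570 to 10306 over the 13 libraries, with group means of 8418 ± 724 (SD, n = 3) in Treg cells and 9259.9 ± 713 (SD, n = 2) in CD4+ Tconv cells of PBS mice. Acaca, the carboxylase that makes malonyl-CoA, ranged from 38.8 to 736. Fasn, fatty acid synthase, was at 757, 1196 and 1555 in Treg cells, 3479 and 2245 in CD4 PBS, 461, 1677 and 2455 in CD4 DTx, 4126 and 3800.3 in CD8 PBS and 770.5, 1599.6 and 3749 in CD8 DTx. Each Treg library was below both CD4 PBS libraries, yet the difference did not pass (log2 -1.32 ± 0.69 SE, adjusted p = 0.194), and within each group of 3 the replicate 1 library was the lowest.

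At 10050 nt, Fasn is one of the long transcripts, and the libraries differed in how well long transcripts were represented. The balance of long against short transcripts was taken as the median log2 deviation of 2195 genes with long transcripts (at least 4576 nt) minus that of 2195 genes with short ones (at most 2001.5 nt), from GENCODE vM21 lengths. It was -0.72 to -0.35 in the 3 replicate 1 libraries, -0.39 to 0.30 in replicate 2 and 0.25 to 0.54 in replicate 3. The PBS Tconv groups, which have no replicate 1 library, were all at 0.24 or above. Per the study, replicates were isolated on independent days. If a replicate number marks a day, the day of replicate 1 has no PBS Tconv library, and day and group cannot be told apart for those libraries. The balance moved with the levels of Fasn and Srebf1. Among the called members, Pmvk, Fdps, Ebp and Elovl1 have short transcripts, of 1194, 1382, 1743 and 1811 nt. For Pmvk, Ebp and Elovl1 the replicate 3 library was the lowest in each group of 3. For Fdps this held in Treg PBS and CD8 DTx but not in CD4 DTx. The part of the balance in the differences of these genes was not tested. With the balance as a covariate, 14, 7 and 8 members were called for Treg PBS, CD4 DTx and CD8 DTx, without the replicate 1 libraries 14, 7 and 10, and with replicate number as a block 15, 7 and 12.

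**Figure D4:**
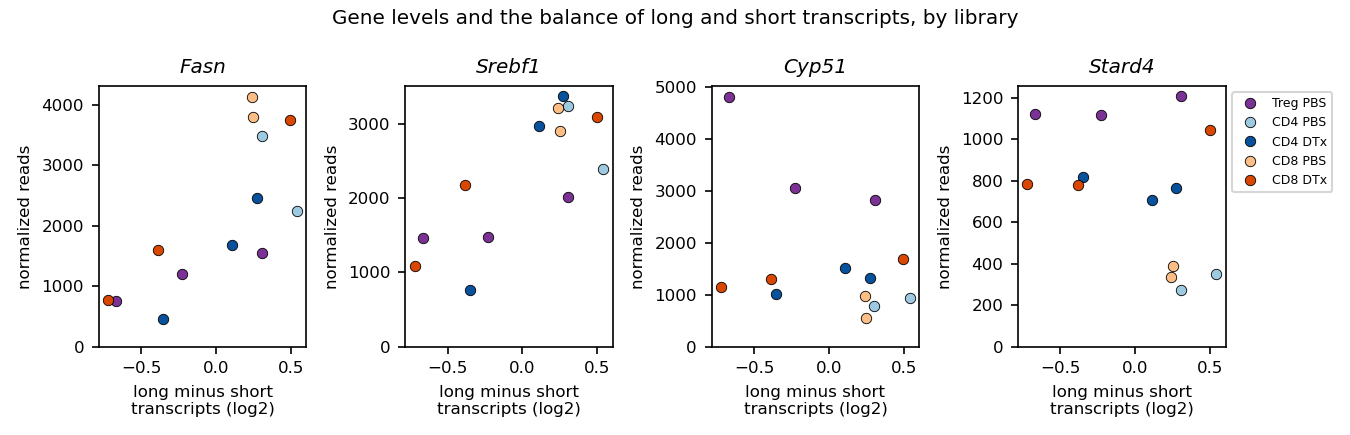
Normalized reads of 4 genes (y axis, linear from 0) against the balance of long and short transcripts of each library (x axis, log2), 1 point per library coloured by group. The 3 lowest Fasn points are the replicate 1 libraries, toward the left, while the Treg PBS points of Cyp51 and Stard4 all lie above the CD4 PBS points.

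Of the desaturases and elongases, 1 of 7 was called in Treg PBS, 1 in CD4 DTx and 2 in CD8 DTx, all higher. A share of 1 in 7 (14.3%) is under the background of 20.4% for Treg PBS and near that of 12.7% for CD4 DTx, and the background for CD8 DTx was 10.9%. Elovl1, which lengthens saturated very long chains, was at 6123, 4801 and 4412 in Treg cells, 1539 and 1474 in CD4 PBS, 5618, 4229.9 and 2924 in CD4 DTx, 2161 and 2047 in CD8 PBS and 5616, 6494 and 3222 in CD8 DTx. The PBS Tconv libraries were the 4 lowest. Its log2 differences were 1.75 ± 0.31 (adjusted p = 0.00206) in Treg PBS, 1.45 ± 0.31 (adjusted p = 0.00947) in CD4 DTx and 1.22 ± 0.31 SE (adjusted p = 0.0278) in CD8 DTx. The DTx calls were lost without either PBS library of the subset, and the CD8 call also without CD8 DTx replicate 1 or 2 or without the replicate 1 libraries of all groups. Elovl1 lies end to end with the cell cycle gene Cdc20 on the opposite strand, with 53 nt of exon shared. The Elovl1 level was 1.80 to 14.7 times that of Cdc20. Cdc20 moved the same way as Elovl1 in each comparison, without overlap. Its highest PBS Tconv values were 297 for CD4+ and 503 for CD8+ cells. Its lowest values were 1207 among Treg libraries, and 382 and 1112 for CD4+ and CD8+ cells of DTx mice. The part of Cdc20 reads in the Elovl1 calls was not tested.

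Scd1, the desaturase that makes oleate, was low in every library. It was at 5.08, 22.7 and 0 in Treg cells, at 0 in both CD4 PBS libraries, at 0, 36.8 and 42.1 in CD4 DTx, at 0 in both CD8 PBS libraries and at 104, 94.4 and 32.3 in CD8 DTx. All 3 CD8 DTx libraries were thus above every PBS library of CD8+ cells, by a mean at least 19.3-fold the level of 3 reads in a CD8 PBS library (adjusted p = 0.037), a call lost in 7 of 17 alternatives, namely without either CD8 PBS library, without CD8 DTx replicate 1 or 2, with a pseudocount of 0.1, in edgeR on the recovered reads and with the length covariate. Scd2, its close copy, was at 1183, 1649.9 and 2208 in Treg cells, 2121 and 1210.0 in CD4 PBS, 1188, 4219.7 and 4034 in CD4 DTx, 2095 and 1382 in CD8 PBS and 1753, 2739 and 3667 in CD8 DTx, and was not called (adjusted p = 0.986, 0.38 and 0.472). Only uniquely aligned reads were counted, so reads that fit both copies were lost from each, and the values of the pair are uncertain. The elongases Elovl5 and Elovl6 and the desaturases Fads1 and Fads2 were not called in any comparison, and Fads2 never exceeded 24.7 normalized reads.

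Acyl-CoA synthetases activate fatty acids for use in lipids. Acsl4, which prefers polyunsaturated fatty acids, was at 2238, 2776 and 3230.3 in Treg cells, 1555 and 1334 in CD4 PBS, 2746, 2351 and 2201 in CD4 DTx, 1672 and 1357 in CD8 PBS and 2435, 2767 and 2622 in CD8 DTx. All 9 libraries of Treg cells and of DTx mice were above all 4 PBS Tconv libraries. The differences were modest, with log2 values of 0.92 ± 0.20 (adjusted p = 0.00759), 0.75 ± 0.20 (adjusted p = 0.03) and 0.79 ± 0.20 SE (adjusted p = 0.0277) for Treg PBS, CD4 DTx and CD8 DTx. The Treg call was lost without CD4 PBS replicate 3, the CD4 DTx call without either CD4 PBS library or CD4 DTx replicate 1 or 2, and the CD8 call without either CD8 PBS library or CD8 DTx replicate 2. Acsl5, a mitochondrial and endoplasmic reticulum form, ranged from 5388 to 11081 and was not called.

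Acsl3, which feeds lipid droplets, was at 279, 258 and 263 in Treg cells, 256 and 382 in CD4 PBS, 4.68, 55.2 and 36.9 in CD4 DTx, 88.7 and 131 in CD8 PBS and 40.6, 20.2 and 0 in CD8 DTx. Every DTx library was below every PBS library of any cell type. The differences from PBS Tconv cells were not called all the same (log2 -3.77 ± 1.34 SE, adjusted p = 0.0914 in CD4 DTx, and log2 -3.50 ± 1.34 SE, adjusted p = 0.12 in CD8 DTx), with libraries at 4.68 normalized reads and at 0 among those of CD4 DTx and CD8 DTx.

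**Figure D5:**
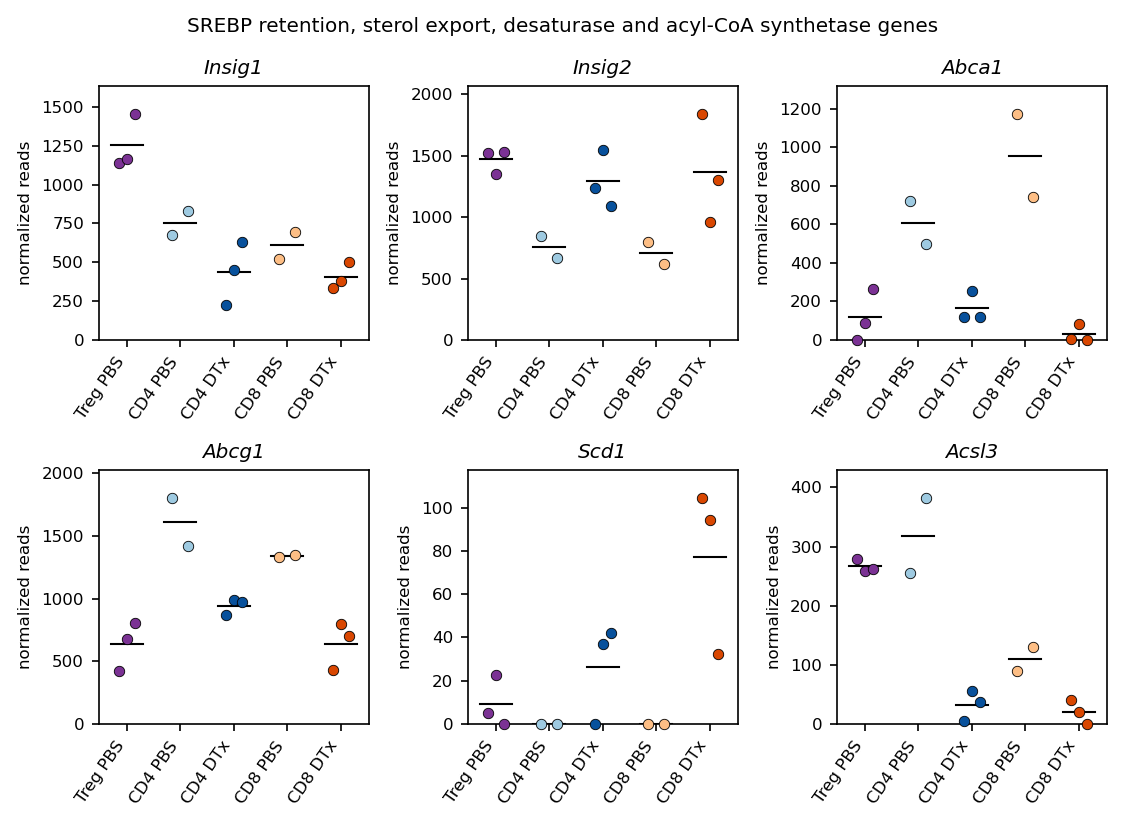
Normalized reads of 6 genes of SREBP retention, export, desaturation and fatty acid activation in each library (points, 1 colour per group) with the group mean (line), each panel on its own linear axis from 0. Abca1 and Abcg1 have their 4 highest points in the PBS Tconv groups, Insig1 has its 3 highest in Treg PBS, and the 6 DTx points of Acsl3 are the lowest of that gene.

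Across the 3 comparisons with PBS Tconv cells, 4 members were higher in each (Acsl4, Elovl1, Sc5d and Stard4), and Lss was higher in both DTx comparisons. CD4 DTx and Treg PBS were set against the same 2 CD4 PBS libraries, so these calls are not independent. In all, 18 of the 37 members were called in none of the 6 comparisons.

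A direct comparison of DTx Tconv cells with Treg cells asked how far the levels differed between them. Of the 37 members, 6 were called between CD4 DTx and Treg PBS, 1 higher and 5 lower, against a background of 7.91% of genes, 3.36% higher and 4.55% lower. Between CD8 DTx and Treg PBS, 7 were called, 1 higher and 6 lower, against 8.60%, of which 3.88% were higher and 4.71% lower. Both comparisons use the same 3 Treg PBS libraries. In each, 14 members did not overlap between the groups, against 25.4% of genes for CD4 DTx and 22.6% for CD8 DTx. Lss was the higher gene in both (log2 1.02 ± 0.22 SE, adjusted p = 0.0145 in CD4 DTx, and log2 0.85 ± 0.22 SE, adjusted p = 0.0329 in CD8 DTx). Idi1, Fdps, Fdft1, Cyp51 and Insig1 were lower in both. Relative to Treg PBS, Idi1 differed by -2.21 ± 0.40 SE in CD4 DTx (adjusted p = 0.00514) and -1.43 ± 0.40 SE in CD8 DTx (adjusted p = 0.0441) on the log2 scale, Cyp51 by -1.45 ± 0.28 SE (adjusted p = 0.00786) and -1.35 ± 0.28 SE (adjusted p = 0.00977), and Fdps by -1.23 ± 0.23 SE (adjusted p = 0.00603) and -0.83 ± 0.23 SE (adjusted p = 0.0416). Insig1 differed by -1.63 ± 0.34 SE in CD4 DTx (adjusted p = 0.0127) and -1.63 ± 0.34 SE in CD8 DTx (adjusted p = 0.0103). Acsl3 was called in CD8 DTx alone (-4.80 ± 1.20 SE, adjusted p = 0.0271), beside -3.54 ± 1.20 SE in CD4 DTx (adjusted p = 0.0985), and the difference between these was not tested.

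Ebp, Sc5d, Elovl1 and Acsl4 were not called between the DTx groups and Treg PBS, and their libraries overlapped. Past the 4-fold threshold, Idi1 was called in CD4 DTx (background 4.01%) and Acsl3 in CD8 DTx (background 4.93%). The CD4 count was 4 to 7 when a library was left out, beside 4.48% to 7.06% of all genes. The CD8 count fell to between 2 and 4 whichever of the 6 libraries was left out, with 2 called without Treg PBS replicate 1. In CD4 DTx the call of Idi1 was kept in 18 of 18 alternatives and those of Insig1, Cyp51 and Fdps in 17, and in CD8 DTx that of Insig1 was kept in 18 of 18 while those of Idi1 and Fdps were kept in 9 of 18, Lss in 11, Acsl3 in 12 and Fdft1 in 13. TMM scaling ended the CD8 calls of Idi1 and Fdps, and that of Lss was lost in 5 of the 6 fits that left out a library. The CD4 calls of Lss and Fdft1 were kept in 15 and 14 of 18.

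Whether DTx changed these genes differently in CD4+ and CD8+ Tconv cells was tested as an interaction. None of the 37 members was called by limma, edgeR or DESeq2, against a background of 0.0474% of genes called by limma, 0.0237% in each direction. None had an unadjusted p under 0.05 by any of the 3 tools. Of all genes, 4.05%, 3.99% and 4.84% did by limma, edgeR and DESeq2, so few of 37 would be looked for. The smallest p among the members was that of Sqle, whose CD4 effect minus CD8 effect was -0.94 ± 0.44 SE on the log2 scale (adjusted p = 1). The same difference was -0.48 ± 0.63 SE for Idi1 and 4.72 ± 2.57 SE for Abca1. So Idi1, Sqle, Fdft1, Scd1, Abca1 and Abcg1, which were called in CD8 DTx and not in CD4 DTx, were not shown to respond differently in the 2 subsets.

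Other genes of the pathway, from lists outside the set, were read beside the members. Of 14 measured genes of sterol and SREBP biology, 3 were higher and 1 was lower in Treg cells than in CD4 PBS, 0 were called in CD4 DTx and 1 was higher in CD8 DTx. The 4 called in Treg cells (28.6%) stand beside a background of 20.4%, and the DTx counts are under the backgrounds of 12.7% and 10.9%. Msmo1, the methyl oxidase of a later sterol step, had levels of 3416, 2583 and 2804 in Treg cells and 1261 and 1029.7 in CD4 PBS (log2 1.35 ± 0.23 SE, adjusted p = 0.00137). Soat1, which esterifies cholesterol for storage, was higher in Treg PBS (log2 1.76 ± 0.29 SE, adjusted p = 0.00108) and in CD8 DTx (log2 1.08 ± 0.29 SE, adjusted p = 0.0316). Mylip, an LXR target that marks lipoprotein receptors for degradation, had levels of 147, 314 and 365 in Treg cells and 2028 and 1909 in CD4 PBS (log2 -2.93 ± 0.40 SE, adjusted p = 0.000381), the same direction as Abcg1. Abca1 was not called in that comparison, and LXR activity was not tested.

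Proliferation genes, from a list outside the set, were mostly higher in each comparison with PBS Tconv cells. Of 12 measured, 10 were higher in Treg PBS, 9 in CD4 DTx and 10 in CD8 DTx, against 13.5%, 8.64% and 7.40% of all genes. Their summed level was 27101 to 59400.4 in Treg PBS, 6832 to 8354 in CD4 PBS, 14291 to 21258 in CD4 DTx, 8308 to 13242 in CD8 PBS and 30865 to 57579 in CD8 DTx, so that the Treg PBS and CD8 DTx libraries overlapped. Against Treg PBS, 0 of 12 were called in CD8 DTx and 1 of 12 was lower in CD4 DTx, beside backgrounds of 8.60% and 7.91%. Their median log2 differences there were 0.06 and -1.21, beside -0.66 and -0.77 for the 16 measured mevalonate, squalene and sterol genes. The part of cell division in the sterol gene levels was not tested.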

How the data were processed

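RNA of the sorted cells was sequenced as 13 low-input SMART-type libraries. Per the labels and methods, the authors checked reads with FastQC, trimmed them with cutadapt, aligned them to NCBIM37 (mm9) with hisat2, kept unique alignments, scaled gene values to library size with a correction by intergenic reads, and ran their own tests with DESeq2. The read counter, its strand setting and the version of each tool are not given in the sources used here. The deposited signal values, headed FPM, are counts divided by 1 factor per library: every value above 0 was a whole multiple of that library's step (100% within 0.01 read), which returned whole reads for an alternative test. edgeR called 2135, 1395 and 1148 genes on these reads for Treg PBS, CD4 DTx and CD8 DTx against PBS Tconv cells. Replicates differed by far more than counting noise (chi-square of 43.5 to 244 for each degree of freedom), so none was a second sequencing of the same library. Of 12963 genes, 53 were at 0 in every library and 21 symbols had turned into dates.

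limma 3.58.1 (R 4.3.3; lmFit, contrasts.fit, eBayes with trend) was fitted to log2(value + 1) of all 13 libraries with 1 mean per group, for the 12667 genes with a value of at least 10 in at least 2 libraries. P-values were adjusted over all 12667 genes by Benjamini-Hochberg, and genes were called at an adjusted p under 0.05. The pseudocount shrinks log2 differences near 0, whereas a single library near 0 can make one larger than the ratio of group means, as for Abca1, Acsl3 and Hsd17b7. Folds in the text are ratios of group means. All 37 measured members passed the filter. The fit was also run on simulated data with known changes, and no result here relies on that run. The labels do not tie libraries to mice, and whether a replicate number marks a shared isolation day is not given in the sources used here, so p-values measure the spread between these libraries.

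The members and all lists were chosen with earlier results of these data known. Values in every library are given for members called against PBS Tconv cells and for the SREBP regulators and exporters. Scd2, Hsd17b7, Fasn and Acsl3 were added after their values were seen, as were the named genes of the other lists. One gene of those lists is counted but not reported here, nor is 1 marker list. Alternatives were pseudocounts of 5 and 0.1, other filters, TMM and median-of-ratios scaling, edgeR 4.0.16 and DESeq2 1.42.0 on the recovered reads, fits on the groups compared, a 4-fold threshold, a replicate block and leaving out each library. For pairing, deviations of same-numbered CD4 DTx and CD8 DTx libraries correlated at 0.21 to 0.59 across genes, the only groups of 3 in which every pair passed 0.1.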

Additional observations from a re-analysis of the deposited data

How the results depend on the processing

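No member's call changed direction under any alternative. With the 4-fold threshold added, the members called were 2 for Treg PBS against CD4 PBS, 0 for CD4 DTx, 2 for CD8 DTx, and 1 each for CD4 DTx and CD8 DTx against Treg PBS. Fits on only the groups compared called 3 in CD4 DTx, 3 in CD8 DTx and 3 in CD8 DTx against Treg PBS. The shares of all genes in those fits were 7.76%, 1.89% and 6.58%. DESeq2 on the recovered reads called 11 for CD4 DTx against Treg PBS and, over all genes, 1543 there against 1002 by limma and 88 against 6 for the interaction. Over all genes, the fits on only the groups compared called 983 in CD4 DTx against 1612, 239 in CD8 DTx against 1377 and 640 for CD4 DTx against Treg PBS. That last count was also 1739 with the block, 1522 with the length covariate and 650 without the replicate 1 libraries, and 1680 against 1089 genes were called for CD8 DTx against Treg PBS with the length covariate. Leaving out 1 library at a time gave 8 to 13 members for Treg PBS against CD4 PBS, 1 to 7 for CD4 DTx, 0 to 11 for CD8 DTx, 4 to 7 for CD4 DTx against Treg PBS, 2 to 4 for CD8 DTx against Treg PBS and 0 to 0 for the interaction; where a group was left with 1 library, that library was assumed to vary like the others. The share of all genes called also moved between these fits. The members' median over these fits was 0.54 to 0.69, 0.24 to 0.42, 0.29 to 0.44, -0.32 to 0.04, -0.35 to -0.20 and -0.16 to 0.06 in the same order. Chosen after seeing the data, the length covariate moved the median of Treg PBS against CD4 PBS to 0.71, and leaving out the replicate 1 libraries gave 3 members for CD4 DTx and 3 for CD8 DTx against Treg PBS. Without those libraries the shares of all genes were 5.13% and 7.37%.

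The replicate block, with replicate number as a factor, called 15, 7, 12, 9, 7 and 0 members in that order, and no count moved by more than 1.5 times. For the interaction, the comparison whose DTx libraries correlated by number, the block left Abca1, Sqle and Elovl5 with an unadjusted p under 0.05 and called 0. Of all genes, 5.53% had an unadjusted p under 0.05 in that fit. Elsewhere no source used here says that same-numbered libraries share a mouse or a day: the correlations were 0.10 for Treg PBS and CD4 PBS, -0.31 to -0.21 for CD4 PBS and CD4 DTx, -0.01 to 0.08 for CD8 PBS and CD8 DTx, 0.04 to 0.25 for Treg PBS and CD4 DTx and 0.01 to 0.30 for Treg PBS and CD8 DTx. Depth limits Scd1, Fads2, Abca1 and Acsl3, which had libraries at or near the level of 3 reads, and groups of 2 limit every comparison with PBS Tconv cells.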

Other observations

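Genes that use fatty acids were read from lists outside the set. Dgat1, which completes triglyceride synthesis, had 13152, 8279.6 and 10930.4 normalized reads in Treg cells, 1797 and 1409 in CD4 PBS, 5426, 4089.8 and 4421 in CD4 DTx, 1137 and 1084 in CD8 PBS and 3826, 2144 and 2941 in CD8 DTx. The PBS Tconv libraries were lowest and the Treg libraries highest, with no overlap with the DTx libraries between them. Its log2 differences were 2.73 ± 0.26 SE in Treg PBS (limma, adjusted p = 4.25e-05), 1.53 ± 0.26 SE in CD4 DTx (adjusted p = 0.0024) and 1.38 ± 0.26 SE in CD8 DTx (adjusted p = 0.00634). Dgat2, a second enzyme for the same step, was at 688, 1026 and 756 in Treg PBS and at most 61.7 in any other library. These genes were chosen after their values were seen.

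Of 14 measured genes of fatty acid synthesis and lipid assembly outside the set, 3 were higher and 1 lower in Treg cells than in CD4 PBS, and Dgat1 alone was called against PBS Tconv cells after DTx, beside backgrounds of 20.4%, 12.7% and 10.9% called in Treg PBS, CD4 DTx and CD8 DTx. Of 16 measured genes of fatty acid oxidation, 3 were higher in Treg PBS than in CD4 PBS, 5 were higher and 1 was lower in CD4 DTx, and 4 were higher in CD8 DTx. The 3 called in Treg PBS (18.8%) are under the background of 20.4% of all genes, and the 6 (37.5%) and 4 (25%) called after DTx stand beside 12.7% and 10.9%. Slc25a20, the mitochondrial carnitine carrier, was at 872 and 806 in CD4 PBS and 1686, 1609 and 1596 in CD4 DTx, and at 789.7 and 785 in CD8 PBS and 1685, 1640.1 and 1569 in CD8 DTx. Its rise was 0.96 ± 0.17 SE on the log2 scale in CD4 DTx (adjusted p = 0.00255) and 1.05 ± 0.17 SE in CD8 DTx (adjusted p = 0.00247). Crot, which handles medium chains in peroxisomes, rose in CD4 DTx from 2903 and 2244 to 5815, 4893 and 5864 (log2 1.11 ± 0.23 SE, adjusted p = 0.00737) and in CD8 DTx from 2943 and 2379 to 9363, 8024 and 8273 (log2 1.69 ± 0.23 SE, adjusted p = 0.00118). Acadm, the medium-chain dehydrogenase, was the lower gene in CD4 DTx, at 958, 844 and 681 against 1326 and 1595 in CD4 PBS (log2 -0.83 ± 0.24 SE, adjusted p = 0.0388).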
